A study of Homo sapiens with 9 samples.

Results

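The 6 genes described here are MAP4K4, MAP3K7, ABL2, MARK2, MARK3 and CSNK1G3. They encode protein kinases with exons listed as skipped exon events in a study of epithelial–mesenchymal transition (EMT). QKI-5 peaks were assigned to them from a list of 24037 peaks, and 99 of these had their centre inside the span of 1 of the 6 genes, on the strand of the gene, in the GENCODE release 44 annotation of protein-coding genes. MARK3 held 40 of the 99 peaks, MAP4K4 28, MARK2 19, ABL2 6, MAP3K7 4 and CSNK1G3 2. On the opposite strand the 6 spans held 0 peaks.

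The peaks came from HITS-CLIP, in which ultraviolet light fixes an RNA-binding protein to its RNA inside living cells, an antibody pulls the protein out, and the attached RNA fragments are sequenced. The cells were mesHMLE, a mesenchymal derivative of the HMLE line of immortalised human mammary epithelial cells, which arose under prolonged TGF-β1 and was then kept without it. For HMLE the study used at least 14 days of TGF-β1 at 2.5 ng/ml, and the cells were crosslinked at 600 mJ/cm2. There were 7 libraries from immunoprecipitation with an antibody specific to QKI-5, 3 cut from the gel at the size of the monomer and 4 at the size of a dimer, and 2 size-matched input libraries, all from the same cells and numbered as technical replicates. The authors pooled the libraries and called peaks against the input, so that 1 list stands for all of them. No peak has a replicate error, the read depth per library is not known, and no test between conditions was possible because only mesHMLE cells were crosslinked. Shares are given with 95% Wilson intervals, which cover counting error only.

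QKI, or Quaking, is an RNA-binding protein of the STAR family, and QKI-5 is its nuclear isoform. It recognises the sequence ACUAAY together with a shorter half-site, UAAY, and can promote or repress the inclusion of an exon depending on where it binds around it. The letters ACUAAC are also those of the branch point consensus of yeast introns, and human branch points resemble them loosely. The kinases act in different pathways. MAP4K4 is a STE20-type kinase upstream of JNK signalling that also acts on cell adhesion and migration. MAP3K7, also called TAK1, is activated by TGF-β and inflammatory cytokine receptors through its TAB partners. ABL2, or Arg, is a non-receptor tyrosine kinase that binds actin. MARK2 and MARK3 are paralogs of the PAR-1 polarity family and phosphorylate microtubule-associated proteins. CSNK1G3 is a membrane-anchored casein kinase 1 that can act on the Wnt co-receptor LRP6.

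The genes differed widely in the number of peaks. Of 20163 protein-coding genes 4750 held a peak (23.6%). Among these the median number was 2 and the 90th percentile was 11. MARK3 ranked 44th by number of peaks, MAP4K4 97th and MARK2 194th among these 4750 genes. A count of 19 peaks or more was reached by 4.36% of them. Per length of gene, MARK3 carried 3.38 peaks per 10 kb, MARK2 2.64 and MAP4K4 1.42, against a median of 0.375 and a 90th percentile of 1.99 over the 4750 genes. MAP3K7 had 0.544 and ABL2 0.460 peaks per 10 kb, close to that median, and CSNK1G3 had 0.191. The number of peaks also depends on how much precursor RNA a gene makes, which the list does not measure.

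**Figure D1:**
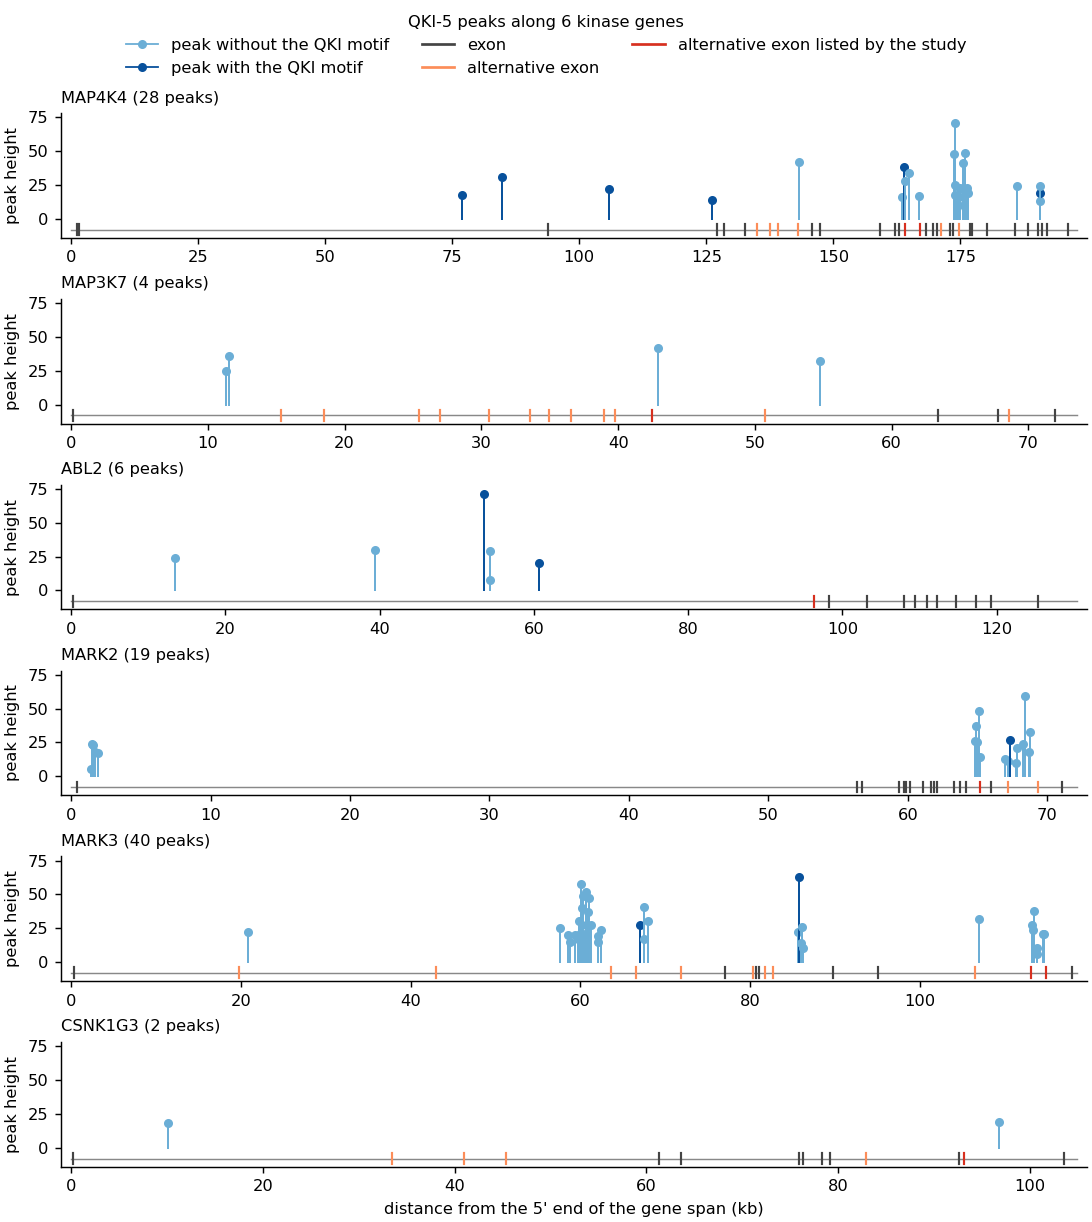
Each row is a gene drawn from its 5′ end, with the distance along the gene in kb on the x axis and the height of each QKI-5 peak, the signal the authors gave it, on the y axis. Stems are peaks, dark ones hold ACTAAC, and ticks under each row are the exons of the canonical transcript, coloured where they are alternative. Peaks of MAP4K4 crowd towards the 3′ part of the gene, and those of MARK2 stand near both ends, with more at the 3′ end. Those of MARK3 form 4 close groups, and all 6 of ABL2 stand in its first intron.

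Peaks lay almost wholly in introns. By the canonical transcript of each gene, 95 of 99 centres fell in an intron (96.0%) and 4 in an exon (4.04%), against 86.0% and 9.21% of all peaks in protein-coding genes, and 25 of the 107 canonical introns held a peak. When any exon of any annotated transcript was given precedence over an intron, 78 of 99 peaks were intronic (78.8%, 95% interval 69.7 to 85.7%), against 79.9% of all 20913 peaks in protein-coding genes. Of the other 21 peaks, 4 centres lay in coding exons, 6 in the 3′UTR of a MARK2 transcript annotated for nonsense-mediated decay, and 11 in exons of MAP4K4 and MARK3 transcripts without a coding region. These were 4.04%, 6.06% and 11.1% of the 99, against 1.91%, 9.94% and 6.42% of all peaks in protein-coding genes. No peak of the 6 genes lay in a 5′UTR, against 1.79% of all peaks in protein-coding genes. The intronic share of the kinase genes was thus near the background in this second count and above it in the count by canonical transcripts. In the count by canonical transcripts, 4.77% of all peaks in protein-coding genes lay outside the canonical transcript, against 0 of the 99. This class lowers the background share, so the shares are not directly comparable.

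Intronic peaks near a splice site were mostly those of MAP4K4 and MARK2. Of the 95 centres in canonical introns, 19 were within 250 nt of the nearer splice site (20.0%), against 9.49% of the intronic peaks of all protein-coding genes, and 11 were more than 5000 nt away (11.6%), against 36.1%. The genes did not share this pattern. In MAP4K4, 10 of 26 intronic peaks were within 250 nt (38.5%), and in MARK2 6 of 17 (35.3%). In MARK3 the figure was 3 of 40 (7.50%), and 27 of its peaks lay between 1001 and 5000 nt (67.5%). MAP3K7, ABL2 and CSNK1G3 had 0 peaks within 250 nt of a splice site of the canonical transcript. Distances were not adjusted for the length of the intron.

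**Figure D2:**
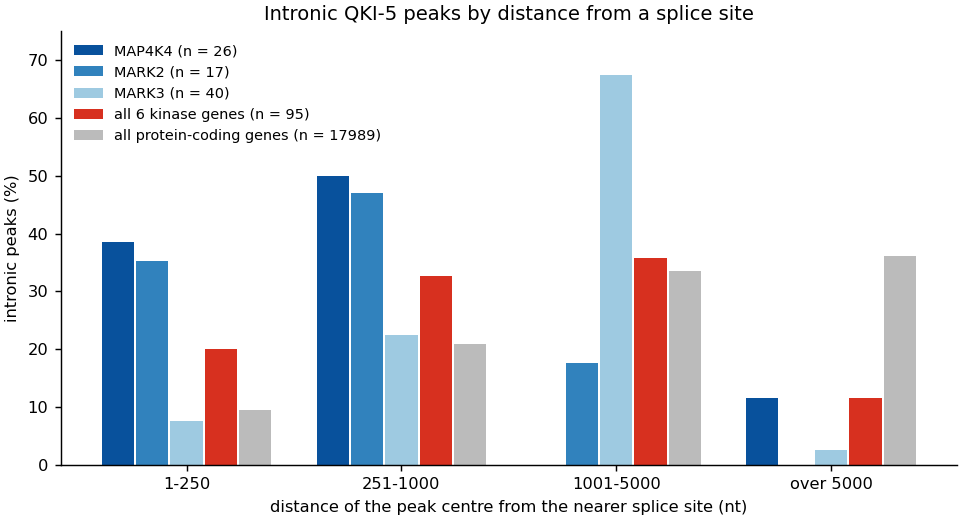
Bars give the percentage of intronic peaks by distance of the peak centre from the nearer splice site of the canonical transcript, in 4 classes in nt, for MAP4K4, MARK2, MARK3, all 6 kinase genes and all protein-coding genes, with the number of intronic peaks in the key. MAP4K4 and MARK2 lead in both classes up to 1000 nt, MARK3 in the class from 1001 to 5000 nt, and all protein-coding genes in the class over 5000 nt.

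An alternative exon was taken here as an internal coding exon that lies wholly inside an intron of another protein-coding transcript of the same gene. The 6 genes held 46 of them. A peak lay within 250 nt of, or over, 9 of the 46 (19.6%, 95% interval 10.7 to 33.2%), against 6.35% of 10620 alternative exons in all protein-coding genes with a peak. Of the 68 constitutive internal coding exons of the 6 genes, 6 had such a peak (8.82%, interval 4.11 to 17.9%), against 2.15% in all genes with a peak. All 6 constitutive exons with a peak were in MAP4K4. Peaks covered 0.990% of the spans of the 6 genes, against 0.281% of the spans of other protein-coding genes with a peak. The shares of alternative and of constitutive exons were not adjusted for this. The 9 alternative exons with a peak were 4 in MAP4K4, 3 in MARK2 and 2 in MARK3. Of the 3 in MARK2, 1 is a shorter form nested in exon 15, and with overlapping exons counted once the share was 8 of 44 (18.2%), against 6.20% in all protein-coding genes with a peak. By position of the centre, 84 of 99 peaks lay in an intron next to an alternative exon (84.8%, interval 76.5 to 90.6%), against 33.4% of all peaks in protein-coding genes. That definition is broad, because annotated transcripts of MARK3 and MAP3K7 skip most of their internal exons, and the genes were chosen for being alternatively spliced.

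Exons that the study names in its lists of skipped exon events are called listed exons below, and their splicing values were not used. Of the 8 listed exons, 6 come from its list of exons that respond both to EMT and to QKI-5 depletion. These are exon 16 of MAP4K4 (162 nt), exon 15 of MARK2 (162 nt), exons 16 and 17 of MARK3 (27 and 45 nt), exon 12 of MAP3K7 (81 nt) and exon 13 of CSNK1G3 (24 nt), numbered in the canonical transcripts. The other two, exon 17 of MAP4K4 (231 nt) and exon 2 of ABL2 (63 nt), come from a list of exons with a peak in an adjoining intron, at any distance, so the presence of such a peak is not a finding. Neither stands in the list for EMT. Exons named in both lists were counted under the first, so any of the first 6 may also stand in the second. Which of them do was not recorded here. For any that do, the presence of a peak in an adjoining intron is not a finding either. All 8 have a length divisible by 3, as do 53.3% of alternative exons and 37.9% of constitutive exons in protein-coding genes with a peak. Of the first 6 exons, 4 had a peak over them or within 250 nt, and each of the 6 had at least 1 peak in the exon or in an adjoining canonical intron. The same held for 22 of all 41 alternative exons in the canonical transcripts of the 6 genes (53.7%, interval 38.7 to 67.9%), and for 25.5% of such exons in all protein-coding genes with a peak. For constitutive exons it held for 16 of 60 in the 6 genes (26.7%, interval 17.1 to 39.0%), against 16.2% in all protein-coding genes with a peak. These shares were not adjusted for intron length or for the number of peaks in a gene. With the introns next to these 6 exons alone, 17 of the 99 peaks were counted (17.2%).

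MAP4K4 (chr2:102313312-102511152, plus strand, 33 exons) had its peaks in 9 introns and 2 exons, and 23 of the 28 lay in the final 20% of the span. Exon 16 had a peak across each of its ends. The first, at chr2:102477233-102477332, had a height of 38 and ran from intron 15 across the 3′ splice site into the exon. It was the only peak of the 6 genes with 2 copies of ACTAAC. The sequence is shown first with both copies in capitals and then with the bases of exon 16 in capitals, because 1 copy lies on each side of the splice site.
MAP4K4 exon 16 3′ splice site peak, motif in capitals: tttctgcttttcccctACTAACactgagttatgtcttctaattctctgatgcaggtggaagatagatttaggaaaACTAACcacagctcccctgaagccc
The same peak, exon in capitals: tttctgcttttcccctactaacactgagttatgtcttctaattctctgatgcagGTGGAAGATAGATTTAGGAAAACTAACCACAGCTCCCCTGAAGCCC
The intronic copy ended 32 nt before the first base of exon 16, and the other lay inside the exon. The second peak, at chr2:102477377-102477475 with a height of 28, covered the end of the exon and the 5′ splice site and held 0 copies. Its sequence is shown with the exon in capitals.
MAP4K4 exon 16 5′ splice site peak: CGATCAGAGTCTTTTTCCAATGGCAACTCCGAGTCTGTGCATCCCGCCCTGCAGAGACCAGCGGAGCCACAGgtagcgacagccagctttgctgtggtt

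A further 3 peaks stood in the introns on both sides of MAP4K4 exon 16. One of height 16 lay 466 nt upstream in intron 15, and in intron 16 one of height 34 lay 615 nt downstream and one of height 17 lay 2700 nt downstream, 79 nt before exon 17. Introns 15 and 16 together made up 2.01% of the intron length of the gene and held 14.3% of its peaks.

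The tallest MAP4K4 peaks and its longest run stood around a different alternative exon, exon 24, which has 192 nt and is not a listed exon. A run of 14 peaks, joined where gaps were at most 1000 nt, covered 2904 nt from intron 23 over exon 24 into intron 24. Of 11308 runs in protein-coding genes, with single peaks counted as runs too, 1.06% held 14 peaks or more. Heights in the run ranged from 9 to 71 with a median of 22.5. Intron 23 held 6 of the peaks and intron 24 held 7, and the exon itself held 1 of height 16. These 2 introns made up 1.61% of the intron length and held 46.4% of the peaks of the gene. The 3 tallest MAP4K4 peaks were all here, at heights of 71 and 48 in intron 23 and 49 in intron 24. None of the 14 held ACTAAC and 3 held a half-site, TAAC or TAAT. The tallest, at chr2:102487260-102487331, is shown because it held neither the motif nor a half-site and had a GC content of 65.3%, against 46.9% for the whole intron.
MAP4K4 intron 23 tallest peak: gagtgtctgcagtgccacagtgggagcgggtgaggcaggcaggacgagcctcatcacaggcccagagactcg

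MAP4K4 peaks in the long introns 2 and 3 looked different. Introns 2 and 3 made up 66.3% of the intron length and held 4 peaks, and all 4 held ACTAAC. Their heights were 18, 31, 22 and 14. The sequences, from the 5′ end of the gene to the 3′ end, are shown with the motif in capitals, since these 4 made up most of the 6 MAP4K4 peaks that held it.
MAP4K4 intron 2, chr2:102390157-102390208: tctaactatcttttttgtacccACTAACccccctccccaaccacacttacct
MAP4K4 intron 2, chr2:102398070-102398131: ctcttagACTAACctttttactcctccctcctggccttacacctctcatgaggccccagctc
MAP4K4 intron 3, chr2:102419174-102419227: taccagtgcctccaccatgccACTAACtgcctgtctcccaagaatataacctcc
MAP4K4 intron 3, chr2:102439433-102439486: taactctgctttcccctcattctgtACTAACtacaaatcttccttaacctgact
The last of these lay 926 nt before exon 4 when measured from the motif, and in the other 3 peaks the smallest gap between the motif and an exon was 9099 nt. The remaining peak with the motif, of height 19, was the middle one of 3 adjoining peaks in intron 30, whose heights were 13, 19 and 24. Single peaks stood in intron 10, 52 nt after exon 10 with a height of 42, and in intron 28 with a height of 24.

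MARK2 (chr11:63606400-63678492, plus strand, 19 exons) had 19 peaks in 3 runs. The first run, of 5 peaks with heights from 5 to 24, covered 512 nt of intron 1, and the centre of its first peak lay 829 nt into that intron. The second run of 5 peaks covered exon 15, the listed exon of this gene, and the end of intron 14. In order along the gene the heights were 26, 37, 25, 48 and 14, and peaks took up 88.9% of the 423 nt from the first to the last. The peak of height 48, at chr11:63671448-63671513, crossed the 3′ splice site of exon 15. No peak lay in intron 15. The sequence is shown with the bases of the exon in capitals, because it is placed like the peak at exon 16 of MAP4K4, the other listed exon of 162 nt, but held 0 copies of ACTAAC.
MARK2 exon 15 3′ splice site peak: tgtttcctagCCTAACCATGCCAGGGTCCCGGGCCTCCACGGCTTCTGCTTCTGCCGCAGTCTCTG
Of the 5 peaks of this run 3 held a half-site, with 4 half-sites in all.

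**Figure D3:**
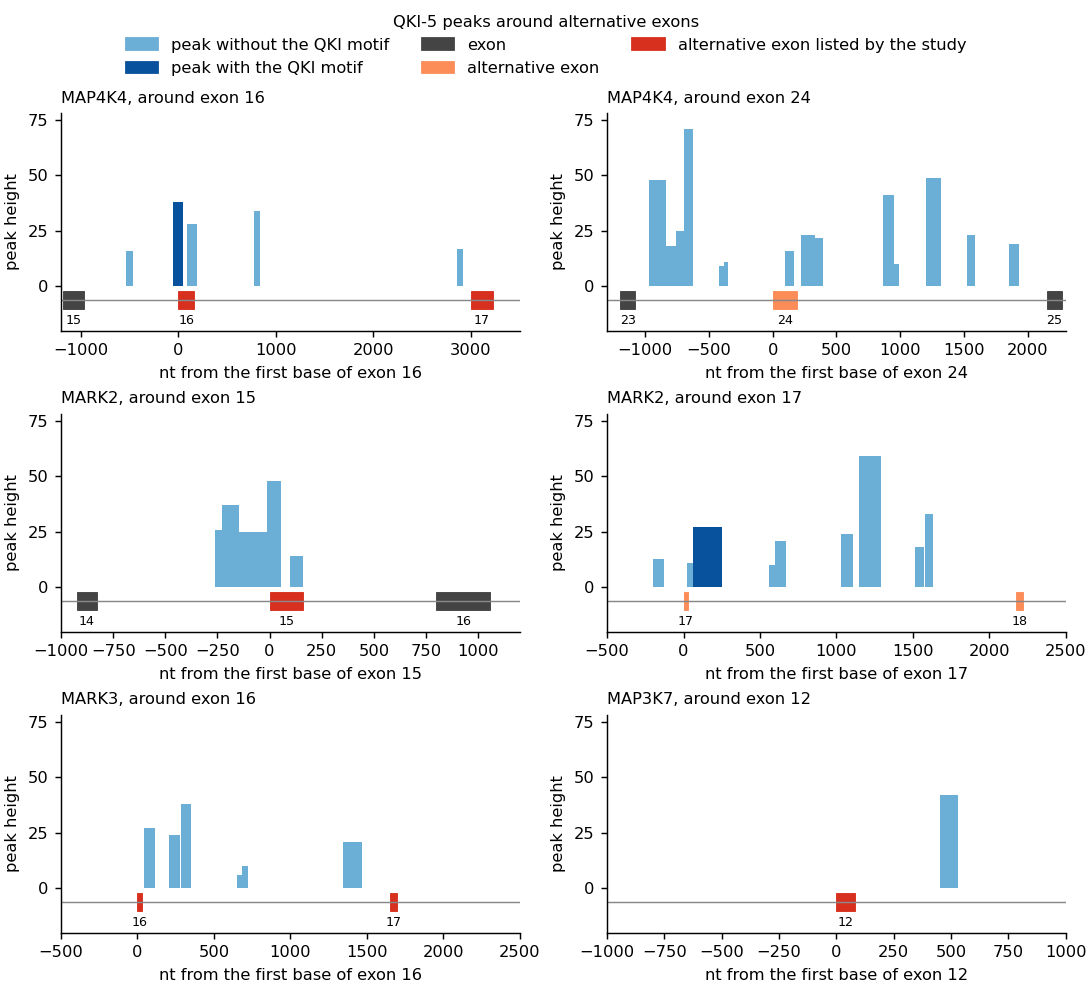
Each panel shows the distance in nt from the first base of an alternative exon on the x axis and peak height on the y axis. Blue bars span the width of each QKI-5 peak, dark ones hold ACTAAC, and boxes below are numbered exons of the canonical transcript, coloured where they are alternative. Peaks cross the 3′ splice sites of MAP4K4 exon 16 and MARK2 exon 15, surround MAP4K4 exon 24, and stand in the introns between the paired short exons of MARK2 and MARK3.

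The third MARK2 run lay around its exons 17 and 18, of 27 and 45 nt. The paralog MARK3 has a pair of alternative exons of the same lengths, its listed exons 16 and 17. The 27 nt exons of the paralogs were identical at 21 of 27 positions (77.8%), and the 45 nt exons at 22 of 45 (48.9%), read without gaps.
MARK2 exon 17, chr11:63673560-63673586: aaatctgtctttcaggtttgccagaag
MARK3 exon 16, chr14:103964839-103964865: aaacatgtcattcaggtttatcaaaag
MARK2 exon 18, chr11:63675732-63675776: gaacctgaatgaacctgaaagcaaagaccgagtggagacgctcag
MARK3 exon 17, chr14:103966493-103966537: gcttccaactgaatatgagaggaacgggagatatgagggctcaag
In both genes the intron between the paired exons held many peaks. In MARK2 this intron, intron 17, had 2145 nt and 8 peaks with heights from 10 to 59 and a median of 22.5. In MARK3 it was intron 16, with 1627 nt and 7 peaks, with heights from 6 to 38 and a median of 21. In other annotated transcripts, 6 of these 8 MARK2 peaks lay in the 3′UTR of the transcript annotated for nonsense-mediated decay. All 7 of these MARK3 peaks lay in exons of transcripts without a coding region. Density was 3.73 peaks per kb in MARK2 and 4.30 in MARK3. These introns made up 3.18% and 1.42% of the intron length of their genes and held 42.1% and 17.5% of their peaks. Whether these densities differ from other introns between alternative exons was not tested.

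The placement of peaks within these paralogous introns was also given by the list. In MARK3 the first peak began 15 nt after exon 16, and the next at 180 and 257 nt, with heights of 27, 24 and 38. The last pair, both of height 21, ended 240 and 185 nt before exon 17. In MARK2 the first peak, of height 11, overlapped the end of exon 17 and its 5′ splice site, and the second, of height 27, began 35 nt after the exon and held ACTAAC 67 nt into the intron. The tallest MARK2 peak, of height 59, stood in the middle of intron 17, 1194 nt from its 5′ end by the centre. The peak nearest to exon 18 ended 538 nt before it and had a height of 33. Upstream of exon 17, intron 16 of MARK2 held a single peak of height 13, and upstream of exon 16, intron 15 of MARK3 held a single peak of height 32 that was 6101 nt away. The MARK2 motif and the first MARK3 peak are shown, since these are the sites that follow the paired 27 nt exons.
MARK2 intron 17, chr11:63673642-63673671: cctgcctccatcACTAACtccccttttctg
MARK3 intron 16, chr14:103964881-103964951: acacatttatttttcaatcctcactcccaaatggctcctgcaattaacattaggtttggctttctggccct
None of the 7 MARK3 peaks in intron 16 held ACTAAC, and 4 of the 7 held a half-site. The tallest of them, of height 38, held ACTAAT and 3 half-sites, the one within ACTAAT included.

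MARK3 (chr14:103851714-103970168, plus strand, 18 exons) held most of its peaks away from its listed exons. A run of 22 peaks covered 4852 nt of intron 3. Of the runs in protein-coding genes, single peaks included, 0.380% held 22 peaks or more. The run lay in the 3′ part of the intron, and its last peak ended 1085 nt before exon 4, which has 49 nt and is skipped in other coding transcripts. Intron 3 made up 17.8% of the intron length and held 55.0% of the peaks. Heights in the run ranged from 11 to 58 with a median of 22.5. Of the 22 peaks 0 held ACTAAC and 12 held a half-site. The tallest is shown because it held 2 half-sites and no full motif.
MARK3 intron 3 tallest peak, chr14:103911736-103911799: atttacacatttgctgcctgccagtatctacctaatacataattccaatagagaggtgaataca

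Smaller MARK3 groups stood in introns 5 and 12, and each held 1 peak with ACTAAC. Intron 5 held 4 peaks with heights from 17 to 41, of which the first, of height 27, held the motif 376 nt into the intron. Intron 12 held 5 peaks within 634 nt, with heights of 22, 63, 14, 26 and 10. The peak of height 63 held the motif and was the tallest in MARK3, 2915 nt from exon 12 and 3885 nt from exon 13 when measured from the motif. The next tallest in the gene, at 58 and 52, were in intron 3.
MARK3 intron 5, chr14:103918666-103918746: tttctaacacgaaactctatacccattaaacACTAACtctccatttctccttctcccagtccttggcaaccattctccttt
MARK3 intron 12, chr14:103937428-103937490: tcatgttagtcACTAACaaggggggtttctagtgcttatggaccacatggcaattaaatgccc
Intron 2 held a single peak, of height 22, which lay 940 nt after exon 2.

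ABL2 (chr1:179068465-179198819, minus strand, 12 exons) held its 6 peaks in intron 1, which has 95866 nt and makes up 81.2% of its intron length. The intron lies between the first exon and exon 2, the listed exon of 63 nt. The nearest peak was 35635 nt upstream of exon 2, and the others were between 41993 and 82797 nt upstream. Heights along the gene were 24, 30, 71, 8, 29 and 20. The peak of 71 shared the greatest height of the 6 genes with MAP4K4, and it held ACTAAC, as did the peak of 20. Both are shown with the motif in capitals.
ABL2 intron 1, chr1:179145303-179145378, height 71: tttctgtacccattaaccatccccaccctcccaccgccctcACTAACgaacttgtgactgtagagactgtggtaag
ABL2 intron 1, chr1:179138145-179138210, height 20: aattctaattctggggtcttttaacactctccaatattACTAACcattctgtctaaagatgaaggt
None of the 10 constitutive coding exons of ABL2 had a peak within 250 nt (interval 0 to 27.8%). This interval includes the 2.15% of such exons in all protein-coding genes with a peak.

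MAP3K7 (chr6:91223292-91296805, minus strand, 17 exons) held 4 peaks, and their heights, 25, 36, 42 and 32, were all above the median of 23 for the whole list. The tallest, of height 42, lay in intron 12 and began 372 nt downstream of exon 12, the listed exon of 81 nt, and intron 11 on the other side of this exon held 0 peaks. It is shown because it is the peak nearest to a canonical exon of this gene, and it held 1 half-site and no ACTAAC.
MAP3K7 intron 12, chr6:91253820-91253898: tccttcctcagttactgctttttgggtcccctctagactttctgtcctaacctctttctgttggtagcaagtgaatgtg
Intron 13 held a peak of height 32 with ACTAAT, 3944 nt downstream of exon 13. The other two, of heights 25 and 36, were in intron 1, the nearer of them 3686 nt upstream of exon 2. Of the 13 alternative exons annotated in MAP3K7, 0 had a peak within 250 nt (interval 0 to 22.8%). This interval includes the 6.35% in all protein-coding genes with a peak.

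CSNK1G3 (chr5:122847871-122952743, plus strand, 14 exons) held 2 peaks, of heights 18 and 19, both below the median of the list. The peak of height 18 was in intron 1, 23082 nt upstream of exon 2. The peak of height 19 was in intron 13, 3544 nt downstream of exon 13, the listed exon of 24 nt, and intron 12 held 0 peaks. Neither held ACTAAC. The short exon and the peak in the intron after it are shown.
CSNK1G3 exon 13, chr5:122941033-122941056: ctgccagaaagtgttgaacatgtg
CSNK1G3 intron 13, chr5:122944601-122944649: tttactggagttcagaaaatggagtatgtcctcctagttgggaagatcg

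Over the 6 genes, peak heights were those of the list as a whole. The 99 heights ranged from 5 to 71 with a median of 23 (95% interval from order statistics 21 to 25) and quartiles at 17.5 and 31.5. All 20913 peaks in protein-coding genes had a median of 23 and quartiles at 18 and 32. Of the kinase peaks, 52 of 99 were at or above the median of the list (52.5%), against 52.7% of all peaks in protein-coding genes. The medians by gene were 34 in MAP3K7, 26.5 in ABL2, 23 in MARK2, 23 in MARK3, 22.5 in MAP4K4 and 18.5 in CSNK1G3. The ranges of MAP4K4, ABL2, MARK2 and MARK3 overlapped over most of their length, and MAP3K7 fell inside each of them. The heights are not corrected for how much RNA each gene makes.

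**Figure D4:**
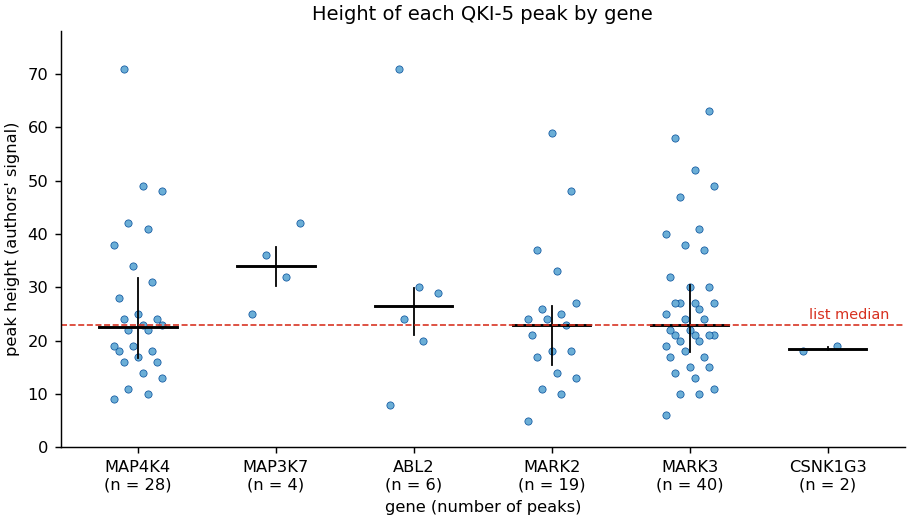
Points are single QKI-5 peaks, with their height, the signal in the authors' list, on the y axis and the gene on the x axis. Thick lines are medians, thin lines run between the quartiles, and the dashed line is the median of the whole list, 23. The points of MAP4K4, ABL2, MARK2 and MARK3 overlap, those of MAP3K7 lie above the line and both of CSNK1G3 lie below it.

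The share of kinase peaks with the motif was near the background. Searched on the strand of the gene, ACTAAC was present in 11 of 99 peaks (11.1%, 95% interval 6.32 to 18.8%), against 10.5% of all peaks in protein-coding genes. MAP4K4 gave 6 of the 11, ABL2 2, MARK3 2 and MARK2 1. ACTAAC or ACTAAT was present in 14 peaks (14.1%), against 14.3%. A half-site, TAAC or TAAT, which is part of the longer motif and is counted with it, was present in 47 peaks (47.5%, interval 37.9 to 57.2%), against 38.1%. The median peak width was 64 nt in the kinase genes and 61 nt in all protein-coding genes. Half-sites were in 23 of 40 MARK3 peaks, 11 of 28 in MAP4K4 and 6 of 19 in MARK2, and the GC content of these peaks was 47.2% in MARK3, 53.3% in MAP4K4 and 59.8% in MARK2.

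Seen from the motif, few copies carried a peak. The 6 gene spans held 79 copies of ACTAAC on the sense strand and 12 of them were inside a peak (15.2%), against 3.91% of the 63831 copies in other protein-coding genes with a peak. Peaks covered 0.990% of the spans of the 6 genes and 0.281% of the spans of those other genes. By gene, 7 of 32 copies were inside a peak in MAP4K4, 2 of 14 in ABL2, 2 of 13 in MARK3, 1 of 3 in MARK2, 0 of 10 in MAP3K7 and 0 of 7 in CSNK1G3. Intron 1 of ABL2 held 12 copies with 2 in peaks, and introns 2 and 3 of MAP4K4 held 14 and 7 copies with 2 in peaks in each.

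Relatives and pathway partners of the 6 kinases were counted from a list of 49 genes. At least 1 peak was present in 28 of them (57.1%, interval 43.3 to 70.0%), against 23.6% of protein-coding genes. RNA levels of these genes were not analysed here. Genes with at least 5 peaks are named, with relatives of the same family at 0. Among 20 close relatives 13 held a peak. MINK1, a paralog of MAP4K4, held 14 peaks with heights up to 54, while the related kinases TNIK and NRK held 0. Of the other MARK kinases, MARK4 held 2 and MARK1 held 0. In the casein kinase 1 family CSNK1G1 held 12 peaks, CSNK1A1 21, CSNK1D 11 and CSNK1E 8, and CSNK1G2 held 0. Among 29 partners and substrates 15 held a peak. The Dishevelled gene DVL3, a Wnt signal transducer, held 31 with a height of up to 582, DVL1 held 6 and DVL2 held 0. MAP4, a microtubule-associated protein phosphorylated by MARK kinases, held 20, and MAPT and MAP2, of the same kind, held 0. MAPK14, the p38α kinase downstream of TAK1, held 17. The kinases MAP2K3, MAP2K4, MAP2K6 and MAP2K7 between them held 0. IKBKB, a kinase of the NF-κB pathway, held 7. The TAK1 partner TAB2 held 5, and TAB1 and TAB3 held 0. CAB39, a cofactor of the MARK-activating kinase LKB1, held 5, and STK11, which encodes LKB1, held 0. MARK3, with 40 peaks, held more than any of the 49.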

How the data were processed

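The 7 immunoprecipitation and 2 input libraries were processed by the authors: reads were trimmed with cutadapt, mapped to hg19 with TopHat2 using the iGenomes UCSC annotation, collapsed by molecular barcode and filtered for mapping quality, and the libraries were pooled. MACS2 then called peaks strand by strand, with the size-matched libraries as control. The deposited list gives start, end, strand, summit and height, and the height is a signal over all pooled libraries rather than a count for any 1 sample. Reads were shifted and extended before calling, which can change the width of a peak, and removing reads of low mapping quality can lower coverage of repeats. Neither effect was measured here.

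Starts were counted from 1. Gene models came from GENCODE release 44 placed on GRCh37 and sequence from GRCh37, the build of hg19. The 18 mitochondrial peaks were left out. Exons and introns were numbered in the Ensembl canonical transcript of each gene. A peak belonged to a gene by its centre, and motifs were searched inside peaks on the strand of the gene. The genes, gene lists and alternatives were chosen with earlier results of these data known. Every intron with a peak is reported, and the peaks described singly were the 3 tallest of each gene, those with ACTAAC, those touching an alternative exon and those in the introns beside a listed exon. The sequences of whole peaks and of the 45 nt exons, and the runs of peaks, were chosen after the values were seen. No test was run, since pooling leaves no replicates, and intervals cover counting error only. The alternatives were other ways to assign, filter and merge peaks, other classes, motifs, exon sets and distances, and each gene left out in turn. Counting overlapping alternative exons once was added after the data were seen. On simulated data 1000 of 1000 interval lookups, 400 of 400 planted motifs and 200 of 200 gene models were recovered. Python 3.11.15, numpy 2.4.6, scipy 1.17.1, pysam 0.24.0, matplotlib 3.10.9 and samtools 1.23.1 were used.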

Additional observations from a re-analysis of the deposited data

How the results depend on the processing

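No paired analysis was possible because the libraries were pooled into 1 list before peaks were called, so no value carries a replicate number. The number of peaks fell from 99 to 52 when peaks below the median height were dropped and to 62 when peaks within 50 nt were merged, by construction of these settings. The intronic share rose from 78.8% to 96.0% when exons of protein-coding transcripts alone were counted, and to 100% when introns were given precedence. The share with the motif went from 11.1% to 4.04% for ACTAAC or ACTAAT followed within 20 nt by a half-site, searched in peaks widened by 25 nt, against 3.86% of all peaks in protein-coding genes. The share in introns next to an alternative exon went from 84.8% to 17.2% with the 6 listed exons alone, to 91.5% without MAP4K4 and to 74.6% without MARK3. Every other alternative that was run kept its value within the interval of the main value, or within 1.5 times for the number of peaks. Pooling leaves the spread between libraries unknown, and the depth of the list limits what can be said of introns without a peak.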
